A study of Arabidopsis thaliana with 36 samples.

Results

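The genes described here make and control indole glucosinolates in Arabidopsis thaliana. They are 8 genes, chosen by locus identifier for their place in the pathway, with earlier results of these data known, out of the 34218 features in the deposited tables. Of these, 5 encode enzymes: CYP79B2 (AT4G39950), CYP79B3 (AT2G22330), CYP83B1 (AT4G31500), SOT16 (AT1G74100) and CYP81F2 (AT5G57220). The other 3 encode MYB transcription factors: MYB34 (AT5G60890), MYB51 (AT1G18570) and MYB122 (AT1G74080). All 8 were found in both tables.

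Indole glucosinolates are sulfur-rich defence compounds built from tryptophan. CYP79B2 and CYP79B3 turn tryptophan into indole-3-acetaldoxime, CYP83B1 carries this intermediate into the glucosinolate core, SOT16 adds the final sulfate and CYP81F2 hydroxylates the indole ring of the finished compound. MYB34, MYB51 and MYB122 are known activators of these enzyme genes, with MYB34 acting mainly in roots and MYB51 mainly in shoots.

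The 36 RNA-seq libraries came from roots and from rosettes, here called shoots, of plants aged 42 days, 3 biological replicates for each of 6 genotypes in each organ. The genotypes were 2 wild types, Col-0 and Col-4, the single mutants nlp2-2, nlp2-3 and nlp7-1, and the double mutant nlp2-3 nlp7-1, which affect NLP2, NLP7 or both. NLP2 and NLP7 are NIN-like transcription factors, a family known for nitrate signalling. All plants grew on sand with 5 mM nitrate, which the submitters call non-limiting, under days of 8 h light and 16 h dark at 21 and 18 °C. The labels give no mutant line's parent, promoter or insertion site, and only titles and descriptions set Col-4 apart, since all samples carry the ecotype Col-0. Here nlp2-2 was set against Col-4 and the other mutants against Col-0. The comparisons of nlp2-3, nlp7-1 and the double mutant therefore share their 3 Col-0 libraries in each organ.

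Levels are given in CPM, a gene's share of the counts of its library, scaled to 1000000, after TMM scaling within an organ. Changes are log2 fold changes with their standard error from edgeR's quasi-likelihood test. A gene is called changed where the p adjusted over all genes tested by the Benjamini-Hochberg method is under 0.05. Library totals ran from 1.84e7 to 2.85e7 counts in roots and from 1.82e7 to 3.17e7 in shoots. NLP2 stood at 52.5 to 66.7 CPM in Col-0 libraries of both organs, at 33.3 to 39.3 in nlp2-3 roots and at 15.4 to 16.8 in nlp2-3 shoots, and NLP7 stood at 31.9 to 36.8 in nlp7-1 roots against 92.0 to 113 in Col-0 roots. In the double mutant NLP2 stood at 45.4 to 52.7 CPM in roots and 8.64 to 9.68 in shoots, and NLP7 at 41.0 to 41.5 and 22.0 to 26.0. In nlp2-2 NLP2 stood at 13.1 to 20.8 CPM in roots and 27.5 to 30.2 in shoots, and NLP7 in nlp7-1 shoots at 18.6 to 23.6 against 48.1 to 48.9 in Col-0, so RNA of the mutated gene remained in every mutant. In nlp7-1 roots NLP2 itself rose, by 0.51 (adjusted p = 0.0065), and in nlp2-2 NLP2 fell by 1.62 in roots and by 0.53 in shoots. The summed level of 5 leaf genes ran from 27.7 to 105 CPM in roots and from 42239 to 55048 in shoots, and that of 5 root genes from 802 to 2294 in roots and from 0.217 to 2.75 in shoots, so each organ carried its own markers, with up to 4 of the 5 root genes at 0 in a shoot library and up to 1 leaf gene at 0 in a root library. Within roots the root list ran lower in nlp7-1 (1214 to 1337 CPM) and in the double mutant (802 to 1071) than in Col-0 (1644 to 2294), mostly through the nitrate transporter gene NRT2.1, and its part in the results on roots was not tested. In bulk tissue, fewer cells of a type and less RNA per cell cannot be told apart.

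The upstream sequences of the 2 first-step genes are shown because both were called in the same direction in 9 of the 20 comparisons within an organ. This count does not set the pair apart. CYP79B2 with CYP83B1 and CYP79B2 with SOT16 were called together in more of these comparisons, which share libraries. Any part of the shared sequence in the calls was not tested. Of the 28 pairs that the 8 genes form, this pair shared the longest identical run in the 250 bases before the gene start, 22 bases, and the next longest run was 13 bases, between CYP79B3 and MYB34. The run lies in a block of 40 bases with 39 identical and 1 differing. The block lies 95 to 56 bases before the start of CYP79B2 and 169 to 130 bases before that of CYP79B3. The run of 22 bases was found on either strand in 0 of the other windows of this size among 27443 genes. It was picked as the longest run this pair shares, and a string of 22 bases seldom recurs by its length alone. The 0 is therefore a description and not a test. The windows are chr4:18524792-18525041 for CYP79B2 and chr2:9488163-9488412 for CYP79B3, both on the plus strand of RefSeq's TAIR10.1 and ending just before the annotated gene start. The deposited tables hold no coordinates and the submitters' notes name TAIR10. Capitals mark the bases of the block that are identical, and the lower case letter inside it is the base that differs.
CYP79B2: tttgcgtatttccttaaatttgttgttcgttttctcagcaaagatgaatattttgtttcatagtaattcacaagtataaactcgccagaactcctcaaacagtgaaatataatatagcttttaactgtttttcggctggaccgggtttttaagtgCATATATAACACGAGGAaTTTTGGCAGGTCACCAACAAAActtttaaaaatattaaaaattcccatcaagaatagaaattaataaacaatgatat
CYP79B3: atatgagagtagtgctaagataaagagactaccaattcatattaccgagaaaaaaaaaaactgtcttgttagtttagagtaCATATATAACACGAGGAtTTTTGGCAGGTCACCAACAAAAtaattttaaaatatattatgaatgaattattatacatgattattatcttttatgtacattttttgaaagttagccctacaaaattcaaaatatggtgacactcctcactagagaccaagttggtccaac

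A search of the 8 windows on both strands for 5 short motifs gave 2 matches. The W-box TTGACC, present in 12.2% of all windows, lay 194 bases before CYP81F2. The AC-II element ACCAACC, present in 2.69%, lay 238 bases before SOT16. The G-box CACGTG (6.49% of windows), the AC-I element ACCTACC (1.16%) and CTT followed after 10 bases by AAG (8.02%) were in none of the 8. A match describes letters in this window only. The coding sequences of CYP79B2 and CYP79B3 were 80.8% identical over 1694 aligned bases, with no identical run longer than 32 bases, and no gene of the 8 overlapped another annotated gene.

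In wild-type Col-0 roots, levels per transcript length (FPKM) were highest for CYP83B1, at 223 ± 27.7 (SD, n = 3). CYP79B2 stood at 139.6 ± 13.3 FPKM, CYP79B3 at 101 ± 8.02 and SOT16 at 100.3 ± 6.34. MYB34, the most abundant of the 3 regulators, stood at 65.6 ± 2.59 FPKM in Col-0 roots, above MYB51 at 9.62 ± 1.76 and MYB122 at 4.19 ± 1.29. The ring hydroxylase gene CYP81F2 was low, at 1.5 to 7.81 FPKM. CYP79B3 and SOT16 did not differ beyond their spread, and neither did CYP81F2 and MYB122. In Col-0 shoots CYP83B1 was again the highest, at 192 ± 16.6 FPKM, with SOT16 next at 70.7 ± 4.99, followed by CYP79B2 at 32.3 ± 1.29, CYP79B3 at 29.5 ± 0.49 and MYB34 at 22.7 ± 0.97. MYB51 stood at 4.65 ± 1.31 FPKM in shoots, and MYB122 was read with 2, 7 and 4 counts.

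The organs of Col-0 were compared in 1 fit over all 36 libraries, in which 78.4% of the 21554 genes tested were called, so a call between organs is the common case. Of the 8 genes, 6 were called. Lower in shoots were CYP79B2 (-1.40 ± 0.09), CYP79B3 (-1.06 ± 0.10), MYB34 (-0.81 ± 0.08) and MYB122 (-4.41 ± 0.38), each with an adjusted p of at most 7.67e-11. MYB122 passed the count filter of this fit through its root libraries alone, since its shoot counts failed the filter in shoots. Its call is therefore a description and not a test. The later enzymes CYP83B1 (0.50 ± 0.08) and SOT16 (0.21 ± 0.07) were higher in shoots on the TMM scale, and both signs turned on the FPKM scale, to -0.21 and -0.50, where the median of all genes itself moved by -0.67. Relative to that shift both genes lay above the median gene in either scaling. The SOT16 call ended without Col-0 root replicate 2 (adjusted p = 0.0797). CYP81F2 (-0.73 ± 0.55) and MYB51 (-0.35 ± 0.26) were not called.

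**Figure D1:**
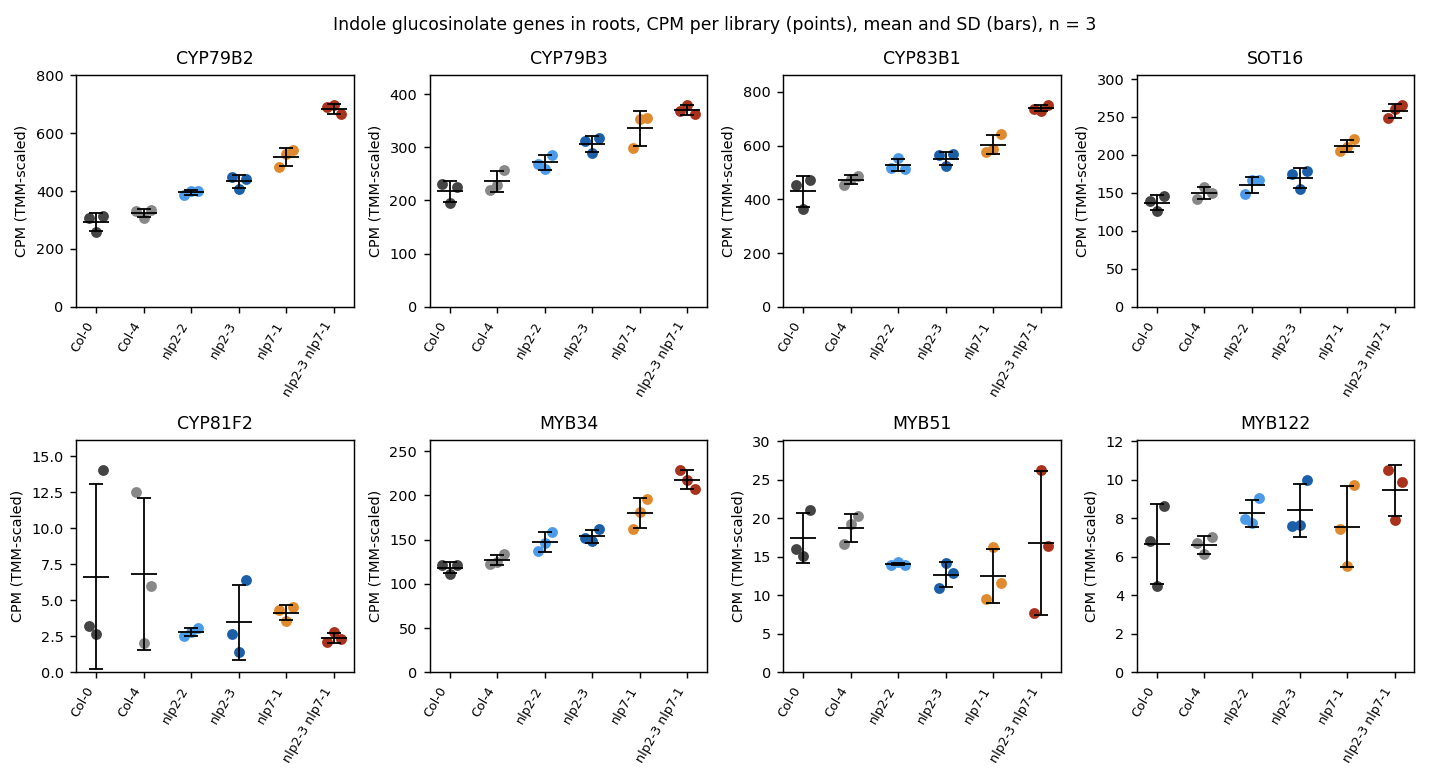
Level of each of the 8 genes in roots, in CPM, for the 6 genotypes; points are libraries, bars the mean and SD (n = 3), each panel with its own axis from 0. CYP79B2 runs from 257 to 313 in Col-0 and from 664 to 697 in the double mutant, while CYP81F2 reaches 14 in 1 Col-0 library.

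In roots, the 4 core enzyme genes and MYB34 were called higher in nlp2-3, nlp7-1 and the double mutant, and in nlp2-2 over Col-4 only CYP79B2 was. These calls use no replicate block, and with the block MYB34 was called in nlp2-2 too. CYP79B2, for the first step, stood at 307, 257 and 313 CPM in Col-0, at 330.2, 308 and 333 in Col-4, and at 386, 398 and 402 in nlp2-2. It stood at 450.1, 407 and 442 CPM in nlp2-3, at 482, 528 and 540.4 in nlp7-1 and at 691, 697 and 664 in the double mutant. The ranges of both wild types overlapped, and no other neighbours in this order did. Every mutant library lay above every wild-type library. CYP79B2 rose by 0.29 ± 0.07 in nlp2-2 over Col-4 (adjusted p = 0.0153), by 0.57 ± 0.07 in nlp2-3 (adjusted p = 4.75e-05), by 0.82 ± 0.07 in nlp7-1 (adjusted p = 3.42e-07) and by 1.23 ± 0.07 in the double mutant (adjusted p = 3.57e-10) over Col-0.

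CYP79B3, which encodes the other enzyme of the first step, stood at 232, 195 and 226 CPM in Col-0 roots, 298, 353 and 355 in nlp7-1 and 368, 379.8 and 362 in the double mutant. Col-4 held 220.3, 230.1 and 257 CPM, nlp2-2 269, 259.6 and 286, and nlp2-3 313, 289 and 317. Again no mutant library reached down to a wild-type library, but the ranges of nlp2-3 and nlp7-1 overlapped. CYP79B3 rose by 0.49 ± 0.08 in nlp2-3, 0.62 ± 0.08 in nlp7-1 and 0.77 ± 0.08 in the double mutant (adjusted p at most 0.000521). In nlp2-2 it changed by 0.20 ± 0.08, which was not called (adjusted p = 0.143).

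CYP83B1, the next enzyme, stood at 455, 364 and 471 CPM in Col-0 roots, 455, 477 and 488 in Col-4, and 517, 555 and 514 in nlp2-2. It stood at 564, 522 and 568 CPM in nlp2-3, 577, 588 and 643 in nlp7-1 and 737, 727 and 751 in the double mutant. The 3 double mutant libraries were higher than all others. CYP83B1 rose by 0.36 ± 0.08 in nlp2-3, 0.49 ± 0.08 in nlp7-1 and 0.78 ± 0.08 in the double mutant (adjusted p = 0.00687, 0.000458 and 3.94e-07). In nlp2-2 the value was 0.16 ± 0.08 (adjusted p = 0.276).

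SOT16, the sulfotransferase gene, stood at 139, 127 and 146 CPM in Col-0 roots, 175, 155 and 178 in nlp2-3, 205, 210.5 and 221 in nlp7-1 and 248, 260.2 and 266 in the double mutant. In Col-4 it stood at 141, 157 and 149.6 and in nlp2-2 at 149, 167 and 167 CPM, groups that overlapped. SOT16 rose by 0.30 ± 0.07 in nlp2-3, 0.63 ± 0.07 in nlp7-1 and 0.91 ± 0.07 in the double mutant (adjusted p = 0.00931, 7.2e-06 and 1.09e-08), and the value in nlp2-2 was 0.11 ± 0.07 (adjusted p = 0.448). In nlp2-3 roots SOT16 was also called lower than in nlp7-1 (-0.32 ± 0.07, adjusted p = 0.0129), in a comparison that called 1.82% of all genes. That call ended without nlp2-3 replicate 2 or nlp7-1 replicate 2 or 3 (adjusted p up to 0.0939). CYP79B2 missed the threshold there (-0.26 ± 0.07, adjusted p = 0.0817) and passed it with DESeq2 (adjusted p = 0.0234) and with the replicate block (adjusted p = 0.0472).

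MYB34, the regulator known mainly from roots, was called in the same 3 mutants as CYP79B3, CYP83B1 and SOT16. It stood at 121, 111 and 122 CPM in Col-0 roots, 122, 125 and 133 in Col-4 and 137, 146 and 159 in nlp2-2. In nlp2-3 it stood at 152, 148 and 162 CPM, in nlp7-1 at 162, 181 and 196 and in the double mutant at 229, 217 and 207. All mutant libraries lay above all wild-type libraries. MYB34 rose by 0.38 ± 0.07 in nlp2-3, 0.60 ± 0.07 in nlp7-1 and 0.88 ± 0.07 in the double mutant (adjusted p = 0.00235, 1.82e-05 and 2.98e-08). In nlp2-2 the value of 0.21 ± 0.07 was not called (adjusted p = 0.0836), and was called with the replicate block (adjusted p = 0.0491).

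MYB51, MYB122 and CYP81F2 were called in none of the 10 root comparisons by edgeR, nor by DESeq2 or limma, although a missed threshold does not show equal levels. At an unadjusted p under 0.05, MYB122 passed in 1 of the 10 and the other two in 0. MYB51 stood at 15.1 to 21.1 CPM in Col-0 roots and at 7.66, 26.3 and 16.5 in the double mutant, which holds both the lowest and the highest root library. MYB122 stood at 4.49 to 8.63 CPM in Col-0 and at 10.5, 7.92 and 9.90 in the double mutant, which overlap; its change of 0.50 ± 0.21 missed the threshold (adjusted p = 0.0864) and passed it without Col-0 replicate 3. The smallest adjusted p of MYB51 in the 4 mutants was 0.411, in nlp7-1.

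Counted over the 8 genes, 1 rose in nlp2-2 roots (2 with the replicate block), where 7.12% of the 20486 genes tested were called in either direction. In nlp2-3 roots 5 rose (6.84% of all genes called), in nlp7-1 roots 5 rose (7.94%) and in double mutant roots 5 rose (25.2%), and none fell in any of the 4. The median change of the 8 was 0.18 in nlp2-2, 0.35 in nlp2-3, 0.55 in nlp7-1 and 0.77 in the double mutant, beside a median of all genes between -0.01 and 0.00. The calls in nlp7-1 and the double mutant held in every alternative run. The CYP79B2 call in nlp2-2 ended without Col-4 replicate 2 or nlp2-2 replicate 2 (adjusted p up to 0.0744), and in nlp2-3 the SOT16 call ended without Col-0 replicate 2 or nlp2-3 replicate 3, and with the CYP83B1 call when only the 2 groups were fitted (adjusted p up to 0.094).

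**Figure D2:**
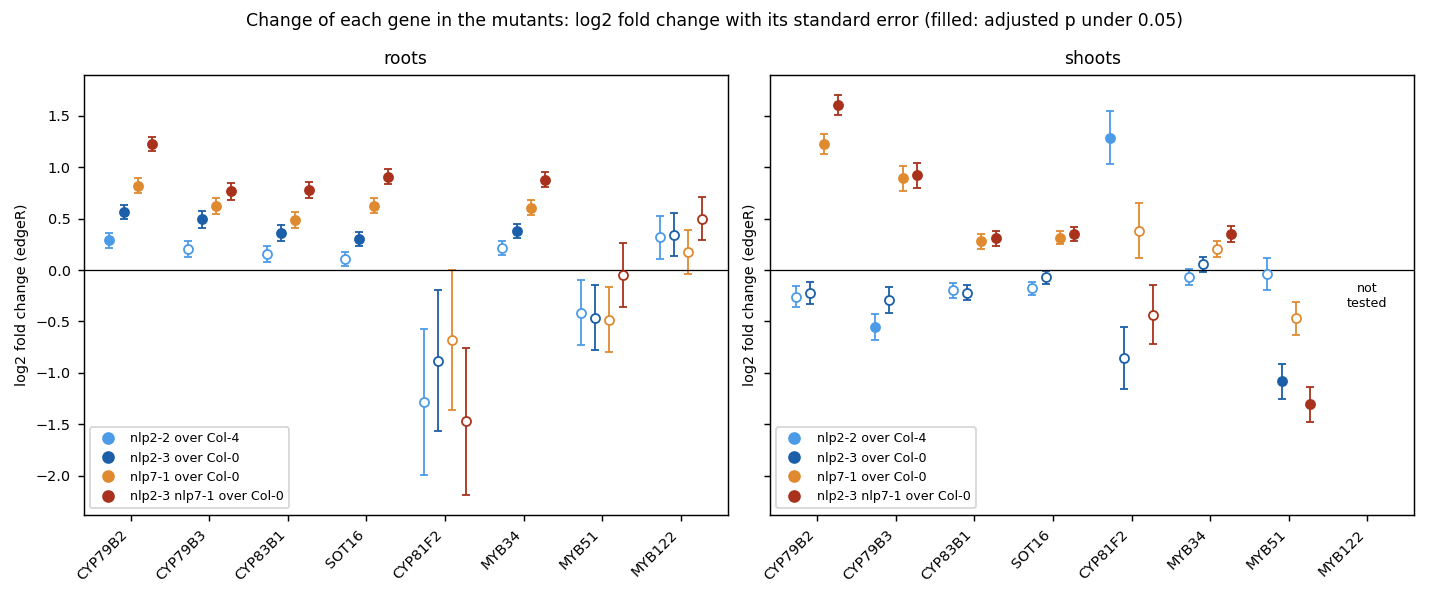
Log2 fold change of each gene in the 4 mutants over their wild type, roots left and shoots right, with standard errors from edgeR; filled points have an adjusted p under 0.05. In roots CYP79B2 goes from 0.29 in nlp2-2 to 1.23 in the double mutant; in shoots it is called in nlp7-1 (1.23) and the double mutant (1.61).

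The wild types gave the background for the nlp2-2 result. Between Col-4 and Col-0 roots 0.0391% of all genes were called, and none of the 8 by edgeR, 0 at an unadjusted p under 0.05 and 0 by DESeq2 or limma. The value of CYP79B2 in Col-4 over Col-0 was 0.15 ± 0.07. When Col-0 served as the wild type instead, nlp2-2 roots had 5 of the 8 genes higher (8.6% of all genes called): CYP79B2 by 0.43 ± 0.07, CYP79B3 by 0.32 ± 0.08, CYP83B1 by 0.30 ± 0.08, SOT16 by 0.23 ± 0.07 and MYB34 by 0.32 ± 0.07. Without Col-0 replicate 2, which was the lowest Col-0 root library for these 5 genes, the calls of CYP79B3, CYP83B1 and SOT16 ended.

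The double mutant was also compared with each single mutant. Over nlp7-1 roots, 4 of the 8 genes were higher (6.51% of all genes called): CYP79B2 by 0.40 ± 0.07, CYP83B1 by 0.29 ± 0.08, SOT16 by 0.28 ± 0.07 and MYB34 by 0.27 ± 0.07, with CYP79B3 at 0.14 ± 0.08 (adjusted p = 0.340). Only the CYP79B2 call held whichever library was left out, and the other 3 ended without nlp7-1 replicate 1 or 2, among others. Over nlp2-3 roots 5 were higher (6.47% of all genes called), from 0.27 ± 0.08 for CYP79B3 to 0.66 ± 0.07 for CYP79B2, and the CYP79B3 call ended without any 1 of the 6 libraries. The interaction of nlp2-3 and nlp7-1, which asks whether the double mutant differs from the sum of the single log2 changes, called 0.239% of all genes in roots and none of the 8 by edgeR, DESeq2 or limma. One of the 8, CYP79B3, had an unadjusted p under 0.05, with an interaction of -0.35 ± 0.11. For CYP79B2 the interaction was -0.16 ± 0.10.

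CYP81F2 varied widely between root libraries of a group. It stood at 3.18, 2.65 and 14 CPM in Col-0, 12.5, 2.06 and 5.95 in Col-4, and 2.65, 1.40 and 6.39 in nlp2-3, so 1 library in each of these groups was well above the other 2. In nlp2-2, nlp7-1 and the double mutant it stood between 2.07 and 4.54 CPM. The fitted changes ran from -1.47 ± 0.71 in the double mutant to -0.68 ± 0.68 in nlp7-1, with adjusted p of 0.158 or more. Without Col-0 replicate 3, the library at 14 CPM, the sign turned in nlp7-1 (0.50) and in nlp2-3 (0.30), and the double mutant stood at -0.30. The high libraries were also high in genes of other routes from indole-3-acetaldoxime: CYP71A12 and CYP71A13, which act towards the phytoalexin camalexin, PAD3, which completes it, CYP82C2, a hydroxylase of a related indolic nitrile route, and the locus AT1G26380. The summed level of these 5 was 115 CPM in Col-0 replicate 3, 102 in Col-4 replicate 1 and 35.9 in nlp2-3 replicate 3, the libraries with 14, 12.5 and 6.39 CPM of CYP81F2, and lay between 3.64 and 25.2 in the other 15 root libraries. What set these libraries apart was not tested.

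**Figure D3:**
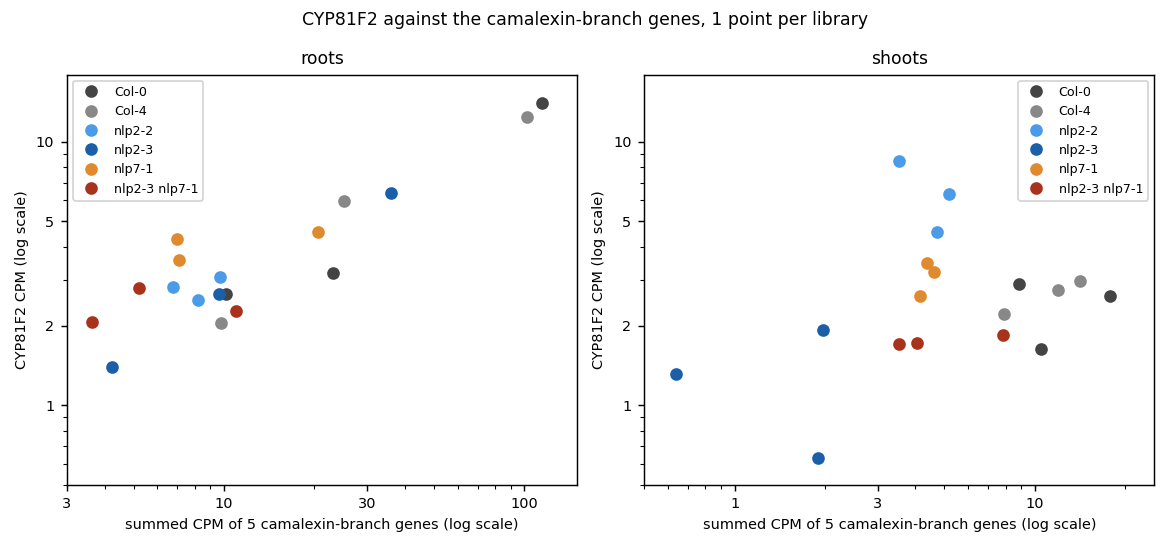
CYP81F2 (CPM, log axis) against the summed CPM of 5 genes of the camalexin and related branches (log axis), 1 point per library, roots left and shoots right. In roots the libraries with the highest sums, 115 and 102, have the highest CYP81F2, 14 and 12.5; in shoots the nlp2-2 libraries, at sums of 3.53 to 5.17, have the highest.

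**Figure D4:**
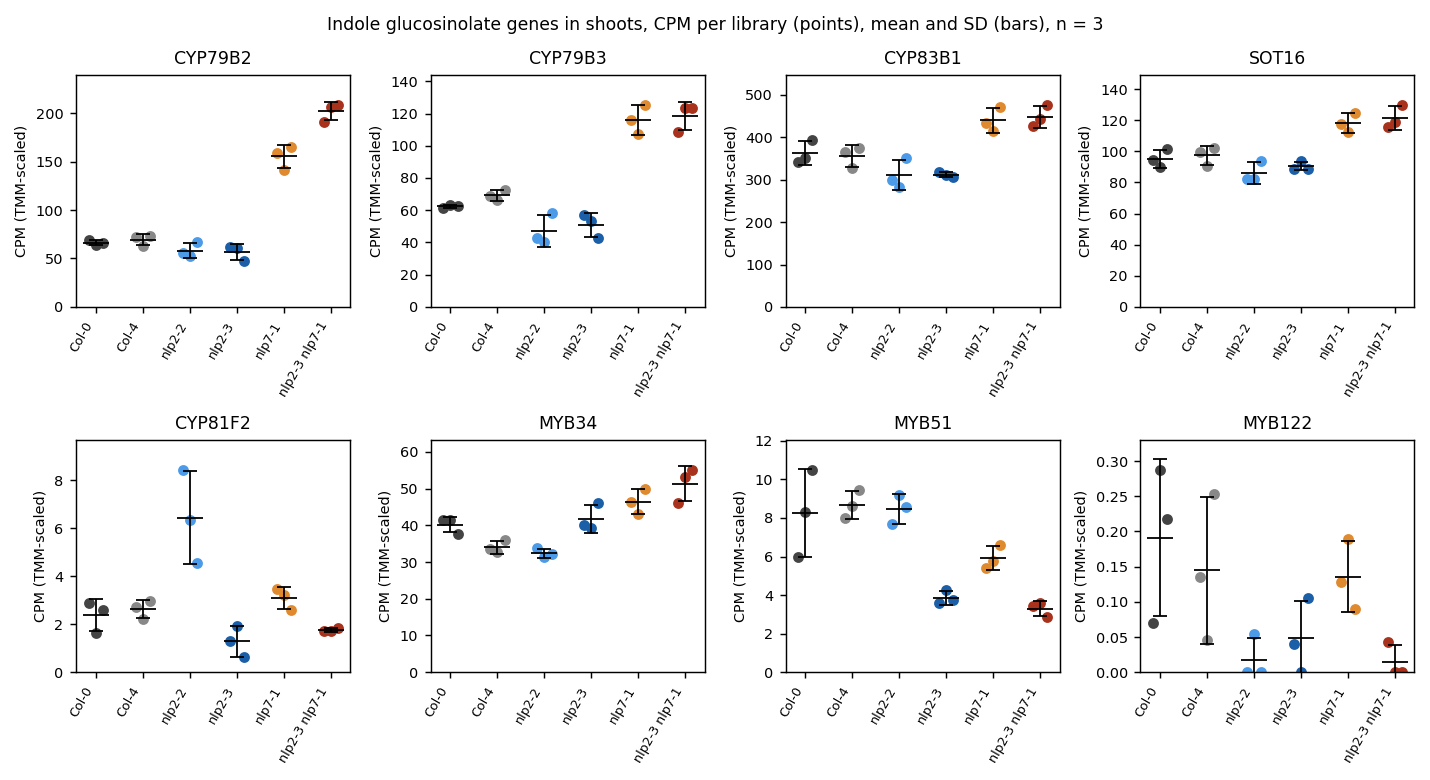
Level of each of the 8 genes in shoots, in CPM, for the 6 genotypes; points are libraries, bars the mean and SD (n = 3), each panel with its own axis from 0. CYP79B2 stands at 142 to 166 in nlp7-1 and 191 to 209 in the double mutant against 63.8 to 68.9 in Col-0, and MYB51 at 3.59 to 4.26 in nlp2-3.

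In shoots, the 4 core enzyme genes were called higher in both genotypes that carry nlp7-1, and none was called higher in nlp2-2 or nlp2-3. These calls, like those in roots, use no replicate block. CYP79B2 stood at 68.9, 63.8 and 66.4 CPM in Col-0, 159, 142 and 166 in nlp7-1 and 191, 206 and 209 in the double mutant. In Col-4 it stood at 71.9, 63.1 and 73.7 CPM, in nlp2-2 at 55.6, 52.3 and 66.8 and in nlp2-3 at 62.1, 61.1 and 46.9. All nlp7-1 and double mutant libraries lay above all others, and the libraries of the nlp2 single mutants overlapped those of the wild types or lay below them. CYP79B2 rose by 1.23 ± 0.10 in nlp7-1 and by 1.61 ± 0.10 in the double mutant (adjusted p = 9.86e-07 and 4.22e-09), and was not called in nlp2-2 (-0.26 ± 0.10, adjusted p = 0.255) or nlp2-3 (-0.22 ± 0.10, adjusted p = 0.285).

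CYP79B3 stood at 61.5, 63.2 and 62.5 CPM in Col-0 shoots, 116, 107 and 125 in nlp7-1 and 108, 123 and 123 in the double mutant, and the latter 2 overlapped. In Col-4 it stood at 68.8, 66.2 and 72.7 CPM, above all 3 nlp2-2 libraries with 42.7, 40.2 and 58.5. CYP79B3 rose by 0.89 ± 0.12 in nlp7-1 and 0.92 ± 0.12 in the double mutant (adjusted p = 0.00032 and 4.25e-05). It fell by 0.56 in nlp2-2 (-0.56 ± 0.13, adjusted p = 0.0247), a call that ended without any Col-4 library or without nlp2-2 replicate 1 or 2 (adjusted p up to 0.117). Against Col-0, the nlp2-2 value of -0.41 ± 0.13 missed the threshold with edgeR (adjusted p = 0.069). It was called lower with DESeq2 (adjusted p = 0.00694), with limma on log2 FPKM (adjusted p = 0.0305 with a pseudocount of 1 and 0.0311 with 0.1) and without nlp2-2 replicate 3 (adjusted p = 0.00068).

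The later core enzymes had smaller fitted changes in shoots than the first-step genes, a difference that was not tested. CYP83B1 stood at 342 to 394 CPM in Col-0, 414 to 471 in nlp7-1 and 426 to 477 in the double mutant, without overlap with Col-0. SOT16 stood at 89.7 to 101 CPM in Col-0, 112 to 125 in nlp7-1 and 115 to 129.8 in the double mutant, again apart from Col-0. CYP83B1 rose by 0.28 ± 0.07 in nlp7-1 and 0.31 ± 0.07 in the double mutant (adjusted p = 0.0164 and 0.00239), and SOT16 by 0.31 ± 0.06 and 0.35 ± 0.06 (adjusted p = 0.00221 and 0.000147). The CYP83B1 call in nlp7-1 ended without Col-0 replicate 1 or 2 or nlp7-1 replicate 3 (adjusted p up to 0.0859). Without the replicate block neither gene was called in nlp2-2 or nlp2-3 shoots, where their values lay between -0.22 and -0.07.

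Of the regulators in shoots, MYB34 was called higher in the double mutant, and MYB51 was called lower in nlp2-3 and the double mutant. MYB34 stood at 41.4, 41.3 and 37.7 CPM in Col-0, 46.4, 43.0 and 49.9 in nlp7-1 and 46.0, 53.1 and 55.0 in the double mutant, and rose in the double mutant by 0.35 ± 0.08 (adjusted p = 0.000757). Its change in nlp7-1 was 0.21 ± 0.08 (adjusted p = 0.0883). MYB51, the regulator known mainly from shoots, stood at 5.96, 8.33 and 10.5 CPM in Col-0, 3.59, 4.26 and 3.73 in nlp2-3, 5.41, 5.75 and 6.60 in nlp7-1 and 3.45, 3.61 and 2.84 in the double mutant. The libraries with the nlp2-3 mutation were lower than all others. MYB51 fell by 1.08 in nlp2-3 (-1.08 ± 0.17, adjusted p = 7.79e-05) and by 1.31 in the double mutant (-1.31 ± 0.17, adjusted p = 1.87e-06), and was not called in nlp7-1 (-0.47 ± 0.16, adjusted p = 0.0647).

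For the other NLP2 allele, MYB51 was not called. In nlp2-2 shoots MYB51 stood at 7.67, 9.21 and 8.57 CPM beside 7.99, 8.63 and 9.45 in Col-4, groups that overlapped, and the change was -0.04 ± 0.16 (adjusted p = 0.953). CYP81F2 was called higher in these shoots. It stood at 8.42, 6.35 and 4.55 CPM in nlp2-2 shoots, above the 2.74, 2.22 and 2.95 of Col-4 and above every other shoot library, and rose by 1.29 ± 0.26 (adjusted p = 0.00372). The call ended without nlp2-2 replicate 1 (adjusted p = 0.0556). In nlp2-3 shoots CYP81F2 stood at 1.32, 1.93 and 0.631 CPM against 2.89, 1.64 and 2.61 in Col-0 (-0.86 ± 0.30, adjusted p = 0.104). The 2 alleles were not tested against each other directly, and their wild types differ. In the nlp2-2 shoots with high CYP81F2 the summed camalexin-branch level was 3.53 to 5.17 CPM, below the 7.89 to 14.1 of Col-4, and so went the opposite way from the roots.

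MYB122 was too low for a test in shoots. It was read with 13 counts over the 3 Col-0 libraries, 10 over Col-4, 11 over nlp7-1, 3 over nlp2-3 and 1 each over nlp2-2 and the double mutant. The ratio to the wild type was 0.0791 in the double mutant, with an exact 95% binomial interval of 0.00186 to 0.526, and 0.115 in nlp2-2 (0.00265 to 0.807). It was 0.248 in nlp2-3 (0.0453 to 0.902) and 0.751 in nlp7-1 (0.305 to 1.82). These intervals cover counting error only and not the spread between plants.

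Counted over the 7 genes tested in shoots, 1 rose (CYP81F2) and 1 fell (CYP79B3) in nlp2-2, where 3.06% of the 19137 genes tested were called. In nlp2-3 shoots 1 fell, MYB51 (5.8% of all genes called). With the replicate block more of the 7 were called in nlp2-2 and in nlp2-3 shoots. In nlp7-1 shoots the 4 core enzyme genes rose (9.77%). In double mutant shoots 5 rose and MYB51 fell (31.1%). The median change of the 7 was -0.18 in nlp2-2, -0.22 in nlp2-3, 0.31 in nlp7-1 and 0.35 in the double mutant, beside medians of all genes between -0.01 and 0.02. In the double mutant shoots 4 of the 5 leaf genes were also called lower, with a list sum of 42239 to 43935 CPM against 47317 to 50553 in Col-0, and their part in the results was not tested.

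Between Col-4 and Col-0 shoots 0.794% of all genes were called and none of the 8 by edgeR, DESeq2 or limma. One, MYB34, had an unadjusted p under 0.05, with a value of -0.24 ± 0.08. MYB34 stood at 32.6 to 35.9 CPM in Col-4 and 31.3 to 33.8 in nlp2-2, so that against Col-0 it was called lower in nlp2-2 (-0.31 ± 0.08, adjusted p = 0.0144), beside a higher CYP81F2 (1.44 ± 0.26), where 7.11% of all genes were called. The MYB34 call ended without Col-0 replicate 1 or 2 or nlp2-2 replicate 2 (adjusted p up to 0.0691).

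The single mutants were also set directly against each other in shoots. In nlp2-3 shoots 6 of the 7 tested were lower than in nlp7-1 (10.5% of all genes called): CYP79B2 by -1.45 ± 0.10, CYP79B3 by -1.18 ± 0.12, CYP83B1 by -0.50 ± 0.07, SOT16 by -0.38 ± 0.07, CYP81F2 by -1.24 ± 0.29 and MYB51 by -0.61 ± 0.17. The MYB51 call ended without nlp2-3 replicate 1 or 3 or nlp7-1 replicate 3 (adjusted p up to 0.0884). The double mutant shoots were higher than nlp2-3 in 5 (26.6% of all genes called), from 0.30 ± 0.08 for MYB34 to 1.83 ± 0.10 for CYP79B2. Over nlp7-1 shoots (7.99% of all genes called), the double mutant was higher in CYP79B2 by 0.38 ± 0.10 (adjusted p = 0.0236) and lower in MYB51 by -0.84 ± 0.17 (adjusted p = 0.00255), and the CYP79B2 call ended without nlp7-1 replicate 1 or 2 or double mutant replicate 2 or 3.

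The interaction of nlp2-3 and nlp7-1 in shoots called 3.76% of all genes and 1 of the 7. CYP79B2 rose in the double mutant by 0.60 ± 0.14 more than the sum of both single changes (adjusted p = 0.0242). The call ended without any 1 of 5 libraries, Col-0 replicate 1 or 3, nlp7-1 replicate 2 and double mutant replicate 2 or 3 (adjusted p up to 0.0681). The interaction was 0.32 ± 0.17 for CYP79B3 (adjusted p = 0.404). With the replicate block 1 further gene of the 7 was called.

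The balance of the 2 first-step genes is given as a ratio, for which the number of libraries allows no call. The ratio of CYP79B2 to CYP79B3 CPM was 1.34 ± 0.04 (SD, n = 3) in Col-0 roots, 1.54 ± 0.06 in nlp7-1 and 1.85 ± 0.02 in the double mutant, without overlap. In shoots it was 1.06 ± 0.05 in Col-0, 1.34 ± 0.03 in nlp7-1 and 1.71 ± 0.05 in the double mutant, again without overlap. In nlp2-3 it was 1.41 ± 0.02 in roots and 1.11 ± 0.03 in shoots, of which the roots lay apart from Col-0. In nlp2-2 shoots the ratio was 1.25 ± 0.09 against 1.00 ± 0.05 in Col-4, also without overlap. With 3 libraries against 3, a two-sided exact permutation test cannot go below p = 0.1, and it gave p = 0.1 in 6 of the 8 comparisons of a mutant with its wild type (adjusted p = 0.133 over these 8). The exceptions by the same exact test were nlp2-2 roots (1.46 ± 0.07 against 1.38 ± 0.11, p = 0.4) and nlp2-3 shoots (p = 0.3).

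**Figure D5:**
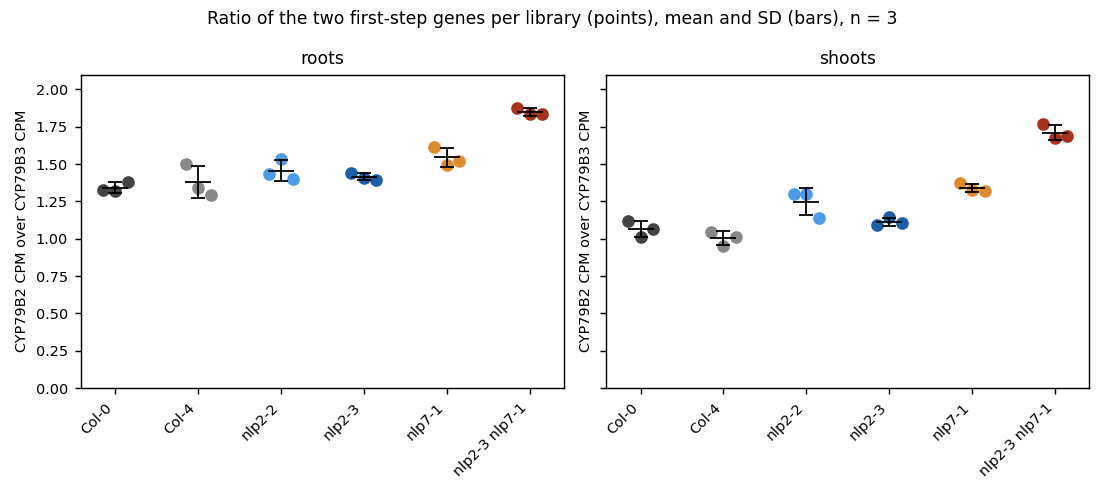
Ratio of CYP79B2 to CYP79B3 CPM per library, roots left and shoots right, axis from 0; points are libraries, bars the mean and SD (n = 3). The double mutant has the highest ratio in both organs, 1.85 in roots and 1.71 in shoots.

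The organs were compared directly for each mutation, as the change in shoots minus the change in roots. For nlp2-3, which called 4.23% of all genes in this contrast, 4 of the 8 genes were lower: CYP79B2 (-0.81 ± 0.13), CYP79B3 (-0.80 ± 0.15), CYP83B1 (-0.60 ± 0.12) and SOT16 (-0.39 ± 0.10), each with a rise in roots and a value below 0 in shoots. For nlp2-2 (2.64% of all genes called) the same held for CYP79B2 (-0.56 ± 0.13) and CYP79B3 (-0.77 ± 0.15), of which CYP79B3 was not called in roots. For nlp7-1 (6.39% of all genes called) the rises of SOT16 (-0.32 ± 0.10) and MYB34 (-0.41 ± 0.11) were smaller in shoots, and both calls ended without any 1 of several libraries, Col-0 root replicate 2 among them. For the double mutant (23.2% of all genes called) the rise of CYP79B2 was larger in shoots (0.38 ± 0.13) and those of CYP83B1 (-0.47 ± 0.12), SOT16 (-0.56 ± 0.10) and MYB34 (-0.53 ± 0.11) were smaller. The CYP79B2 call for the double mutant ended without any 1 of 5 libraries, Col-0 root replicate 1 or 3, Col-0 shoot replicate 2, double mutant root replicate 3 and double mutant shoot replicate 3 (adjusted p up to 0.0812). The SOT16 call for nlp2-3 ended without Col-0 root replicate 2, Col-0 shoot replicate 3 or nlp2-3 root replicate 1 or 3, and in a fit of the compared groups alone (adjusted p up to 0.0777).

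The pathway around the 8 genes was read from lists of the steps before, beside and after them. The counts stand against the share of all genes called in either direction, which in roots was 7.12% in nlp2-2, 6.84% in nlp2-3, 7.94% in nlp7-1 and 25.2% in the double mutant. The shoot shares were 3.06%, 5.8%, 9.77% and 31.1% in the same order. The 7 genes of core steps shared with aliphatic glucosinolates were higher in 7 of 7 cases in nlp7-1 roots, with a median change of 0.42, and in 6 of 7 in double mutant roots, with a median of 0.45. APK2, which makes the active sulfate that SOT16 uses, rose in roots by 0.91 in nlp7-1 and 1.08 in the double mutant, and UGT74B1, the glucosyltransferase before SOT16, rose in double mutant roots by 0.78. In nlp2-3 roots 2 of 7 rose, APK1 (0.35) and APK2 (0.51), and in nlp2-2 roots none was called. In shoots UGT74B1 rose by 0.22 in nlp7-1 and 0.50 in the double mutant, where 3 of 7 rose (31.1% of all genes called) and GSTF10, a glutathione transferase, fell by 0.48. In nlp2-3 shoots 1 of 7 fell, GSTF10 by 0.24. In nlp2-2 shoots 3 fell, APK2 by 0.30, APK1 by 0.21 and SUR1, the carbon-sulfur lyase, by 0.21.

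Of 10 genes of tryptophan synthesis, which supplies the precursor, 2 rose in nlp7-1 roots (7.94% of all genes called) and 3 in double mutant roots (25.2%), led by the tryptophan synthase gene TSB2 with 0.56 and 0.77. Its near copy TSB1 fell in roots of nlp2-2 by 0.46, nlp2-3 by 0.36 and the double mutant by 0.34. In double mutant shoots 7 of 10 rose and none fell (31.1% of all genes called), with a median of 0.26, among them TSB2 (0.46), the anthranilate synthase gene ASB1 (0.43) and the locus AT2G04400 (0.33). In nlp7-1 shoots 3 rose (9.77%), TSB2 by 0.44, TSB1 by 0.33 and AT2G04400 by 0.29. In nlp2-2 shoots 1 fell, TSB2 by 0.36, and in nlp2-3 shoots 1 fell, AT2G04400 by 0.18. Reads of near-identical copies such as TSB1 and TSB2 can be split between them by the counting.

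Among the genes that modify the indole ring beside CYP81F2, the methyltransferase gene IGMT5 was higher in roots of all 4 mutants. It stood at 86.7 to 91.8 CPM in Col-0 roots, 115 to 124 in nlp2-3, 135 to 151 in nlp7-1 and 147 to 196 in the double mutant, without overlap with Col-0. IGMT5 rose by 0.30 in nlp2-2, 0.41 in nlp2-3, 0.70 in nlp7-1 and 0.97 in double mutant roots. In shoots IGMT5 was low, at 3.36 to 4.24 CPM in Col-0 and 12.8 to 14.8 in the double mutant, and rose there by 1.82, and in nlp7-1 shoots by 0.87. CYP81F4, a hydroxylase gene known to act before IGMT5, rose in roots by 0.80 in nlp7-1 and 1.49 in the double mutant. It overlaps the gene AT4G37409 on the opposite strand by 2140 bases, and whether the counting used strand is not given in the sources used here. IGMT3 rose in nlp2-2 shoots by 1.62, at 2.85 to 3.45 CPM against 0.923 to 1.06 in Col-4, beside the higher CYP81F2, and IGMT1 to IGMT4 are near copies whose reads can be split. Of this list 1 of 7 tested rose in roots of nlp2-2 and of nlp2-3, and 2 of 7 in nlp7-1 and the double mutant, with none lower. The 2 of 7 in double mutant roots lie near the 25.2% of all genes called there. In shoots 1 of 6 tested rose in nlp2-2, nlp7-1 and the double mutant each, while IGMT4 fell by 0.46 in nlp2-3, CYP81F3 fell by 0.58 in nlp7-1, and CYP81F3 and IGMT1 fell by 0.78 and 1.04 in the double mutant. CYP81F1, and MYC2 among the further regulators, were listed at 0 in all 36 libraries, and each overlaps another gene on the opposite strand. Other genes named in this report also overlap a gene on the opposite strand. Among them are ASB1 (695 bases), GTR3 (605), CYP71A13 (572), GTR1 (324) and WRKY33 (272).

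Of the 5 further regulators tested, 3 rose in double mutant roots, where 25.2% of all genes were called: MYC4, a helix-loop-helix partner of the MYB factors (0.29), OBP2, a DOF factor (0.62), and IQD1 (0.23). In roots 1 of 5 rose in nlp2-3 (6.84% of all genes called), IQD1 by 0.35, and 1 of 5 in nlp7-1 (7.94%), OBP2 by 0.53. In double mutant shoots 1 of 5 fell (31.1%), WRKY33, an activator of the camalexin genes, by 1.20. On the camalexin branch PAD3 fell in the shoots of all 4 mutants, by 1.56 in nlp2-2, 3.44 in nlp2-3, 1.93 in nlp7-1 and 2.46 in the double mutant, and in roots it fell by 1.44 in nlp7-1 and by 2.30 in the double mutant. The Col-0 root libraries were uneven in this branch, with summed levels of 23.0, 10.2 and 115 CPM. The PAD3 calls were not rerun with a library left out. Of the 4 genes of this branch tested in roots, 1 fell in nlp7-1 (7.94% of all genes called) and 1 in the double mutant (25.2%). None was called in the roots of nlp2-2 (7.12%) or nlp2-3 (6.84%). Of the 4 tested in shoots 2 fell in nlp2-2 (3.06%), 3 in nlp2-3 (5.8%), 1 in nlp7-1 (9.77%) and 1 in the double mutant (31.1%). The 1 of 4 in each organ of the double mutant does not exceed the share of all genes called there. PAD3 stood at 5.37 to 11.9 CPM in Col-0 shoots and 0.28 to 1.21 in nlp2-3 shoots.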

How the data were processed

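Counts and FPKM came from the 2 deposited tables, each with 34218 features and 1 column per library. The deposited counts are whole numbers of reads per gene, and the deposited FPKM are the authors' values per transcript length and library size. Reads were aligned with HISAT2 and counted with HTSeq against TAIR10, per the submitters' processing notes, which give no versions or strand setting. Sequences and positions came from RefSeq's TAIR10.1, which held all 8 genes by locus identifier and 32548 of the 34218 features.

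Counts were analysed with edgeR 4.0.16 in R: filterByExpr with a minimum count of 10 and a minimum total of 15, TMM scaling, a robust quasi-likelihood fit with 1 mean per genotype, and Benjamini-Hochberg adjustment over all genes tested. Roots (18 libraries, 20486 genes) and shoots (18 libraries, 19137 genes) were fitted apart, and organ contrasts in 1 fit of 36 libraries (21554 genes). Standard errors are the fold change divided by the square root of its F statistic. In all 25 comparisons were made. On simulated root counts the test recovered 73 of 100 genes changed 1.5-fold and 92 of 100 changed 2-fold, on shoot counts 73 and 94, and for the change in shoots minus roots 37 and 67. The changed genes were drawn only from genes above a minimum mean count, so these rates do not cover genes with few counts. Alternatives were DESeq2, limma on log2 FPKM with a pseudocount of 1 or 0.1, other scaling factors, no filter, only the groups compared, a replicate block and leaving out each library.

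In every comparison the calls among the 8 genes are counted or named, and not every value that was not called is printed. The other genes named are, per list and comparison, up to 3 called genes in each direction with the smallest adjusted p, and the 3 genes most alike each gene by correlation of log2 CPM (prior count 2) in an organ. The genes and lists were chosen with earlier results of these data known. Lists are described by counts and medians, with no set test.

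Replicate numbers come from the labels, which do not say what they share. The deviations of same-numbered libraries correlated above 0.1 in every pair for Col-0 and nlp2-3 roots (0.235 to 0.381) and for Col-4 and nlp2-2 roots (0.109 to 0.184), and not in the other main comparisons. For these 2 the numbers may pair the samples. The main calls use no block, and the blocked value is given where it changes a call. The block is an effect per replicate number shared by all groups fitted. It therefore does not model a pairing within Col-0 and nlp2-3 roots or within Col-4 and nlp2-2 roots alone. Whether root and shoot libraries of the same number came from the same plants was not checked. The organ contrasts treat them as independent. No library repeated another: the chi-square per gene between replicates ran from 2.88 to 18.4. Depth sets the error of the low genes: CYP81F2 was read with 12 to 281 counts, MYB51 with 69 to 660 and MYB122 in shoots with 0 to 7.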

Additional observations from a re-analysis of the deposited data

Results flagged for a closer look

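The values below are changes in shoots minus changes in roots (log2, edgeR, adjusted p under 0.05), where the effect of a mutation differed between the organs by a test of that difference. Chance was not assessed further, and no explanation was tested.

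For nlp2-3, CYP79B2 differed by -0.81 ± 0.13, CYP79B3 by -0.80 ± 0.15, CYP83B1 by -0.60 ± 0.12 and SOT16 by -0.39 ± 0.10, so the 4 core enzyme genes that were higher in its roots had values below 0 in its shoots. For nlp2-2, CYP79B2 differed by -0.56 ± 0.13 and CYP79B3 by -0.77 ± 0.15. For nlp7-1, SOT16 differed by -0.32 ± 0.10 (adjusted p = 0.0479) and MYB34 by -0.41 ± 0.11. For the double mutant, CYP79B2 differed by 0.38 ± 0.13, CYP83B1 by -0.47 ± 0.12, SOT16 by -0.56 ± 0.10, MYB34 by -0.53 ± 0.11 and MYB51 by -1.26 ± 0.38 (adjusted p = 0.0158). The value of MYB122 in the double mutant, -3.86 ± 1.08 (adjusted p = 0.00841), rests on 1 count in the mutant shoots and depends on the prior count of the fit. MYB122 passed the filter of the fit over both organs through its root libraries alone. Its value is counted below but is a description and not a test.

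Of these 14 results, 6 lost their call in at least 1 alternative. SOT16 in nlp7-1 did so without 8 of the 12 libraries, with no filter and with only the groups compared (adjusted p up to 0.167). SOT16 in nlp2-3 did so without 4 libraries and with only the groups compared (adjusted p up to 0.0777). CYP79B2 in the double mutant did so without 5 libraries (up to 0.0812) and MYB34 in nlp7-1 without 4, Col-0 root replicate 2, Col-0 shoot replicate 1, nlp7-1 root replicate 3 and nlp7-1 shoot replicate 2 (up to 0.0715). MYB51 in the double mutant did so without Col-0 shoot replicate 3 or double mutant root replicate 2, with only the groups compared and with limma at a pseudocount of 1 (up to 0.132), and MYB122 in the double mutant without Col-0 shoot replicate 2 (adjusted p = 0.0528). On simulated counts for nlp7-1, a contrast of this kind recovered 37 of 100 genes changed 1.5-fold and 67 of 100 changed 2-fold, all drawn from genes above a minimum mean count.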

How the results depend on the processing

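Over 25 comparisons the 8 genes gave 190 fold changes, of which 80 were called. The organ contrasts of MYB122, which passed the filter through its root libraries alone, are among these fold changes. No call was lost in any alternative for 55 of the 80, and 22 of the 110 values not called passed in at least 1. Values called in neither setting count as unchanged here. With the FPKM table CYP83B1 and SOT16 in Col-0 shoots over roots turned to -0.21 and -0.50 with a pseudocount of 1, and to -0.21 and -0.50 with 0.1, beside a median of all genes moved by -0.67 and -0.71. In the counts of called genes, the cause of a difference was not tested. With the replicate block, nlp2-2 roots had 2 called in place of 1, nlp2-3 over nlp7-1 roots 2 in place of 1, nlp2-2 shoots 4 in place of 2, nlp2-3 shoots 2 in place of 1 and the shoot interaction 2 in place of 1. The block ended no call. Fitting only the groups compared, with fewer samples, gave 2 in nlp2-2 roots, 3 in place of 5 in nlp2-3 roots and in nlp2-2 over Col-0 roots, 1 in nlp2-2 shoots, 2 in nlp2-3 shoots and 1 in place of 2 for nlp7-1 in shoots minus roots, which also had 1 with no filter. DESeq2 gave 2 for nlp2-3 over nlp7-1 roots and 4 in place of 2 for nlp2-2 in shoots minus roots. Leaving out 1 library gave 0 to 1 in nlp2-2 roots, 2 to 5 in nlp2-2 over Col-0 roots, 1 to 4 in the double mutant over nlp7-1 roots, 0 to 1 in nlp2-3 over nlp7-1 roots, 0 to 3 in nlp2-2 shoots, 1 to 2 in nlp2-3 shoots, 1 to 4 in nlp2-2 over Col-0 shoots, 1 to 2 in the double mutant over nlp7-1 shoots, 0 to 1 for the shoot interaction, and 2 to 4 for nlp2-2 and 0 to 2 for nlp7-1 in shoots minus roots. The other 14 comparisons stayed within 1.5 times. Apart from leaving out a library, the count over all genes moved by over 1.5 times in these cases. With the replicate block, Col-4 over Col-0 had 622 in place of 152 in shoots and 18 in place of 8 in roots, nlp2-2 over Col-0 shoots 2108 in place of 1360, and the interaction 1233 in place of 719 in shoots and 77 in place of 49 in roots. With DESeq2, Col-4 over Col-0 had 311 in shoots and 20 in roots, the root interaction 149, nlp2-3 over nlp7-1 roots 562 in place of 372, and nlp2-2 in shoots minus roots 899 in place of 569, or 1046 with limma at a pseudocount of 1. With only the groups compared, nlp2-3 roots had 659 in place of 1401, the double mutant over nlp2-3 roots 694 in place of 1326, and nlp2-2 over Col-0 1140 in place of 1762 in roots and 882 in shoots.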

Other observations

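Gene groups next to the indole pathway were read from lists as well. Of 8 genes that break down or carry glucosinolates, 6 were tested in shoots, where 2 fell in nlp2-3 (5.8% of all genes called) and 2 in the double mutant (31.1%). The 2 of 6 in double mutant shoots lie near the share of all genes called there. The ATP-binding cassette transporter gene PEN3 fell in nlp2-3 shoots by 0.91 and in double mutant shoots by 0.65, and PEN2, the atypical myrosinase that cleaves indole glucosinolates in leaves, fell by 0.20 and 0.38 there. In roots none of the 8 fell in the 4 mutants over their wild type here, and GTR3, a transporter gene, rose in the double mutant by 0.30. PYK10, a root beta-glucosidase gene, rose in nlp2-2 roots by 0.46 over Col-4, and was not called over Col-0 (0.33, adjusted p = 0.162), where GTR1, another transporter gene, fell by 0.39. Of the genes for the aliphatic branch, 5 of 5 tested rose in nlp7-1 roots (7.94% of all genes called), among them SOT17 (0.68) and CYP79F2 (0.65), 3 of 5 rose in double mutant roots (25.2%) and 1 of 5 in nlp2-3 roots, and in nlp2-2 roots MYB28 fell by 0.29. In double mutant shoots CYP79F2 rose by 1.34 while 4 of the 8 fell (31.1% of all genes called), CYP79F1 by 0.47, MYB28 by 0.35 and MYB29 by 0.31 among them. In nlp7-1 shoots CYP79F2 rose by 0.73 and CYP79F1 fell by 0.42, and in nlp2-2 shoots 3 of 8 fell (3.06% of all genes called), CYP79F1 by 0.29, MYB29 by 0.29 and MYB28 by 0.28. CYP79F1 and CYP79F2 are near copies whose reads can be split.

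Across the 18 root libraries, which share genotype groups and scaling, the gene most alike CYP79B2 was MYB34 (Pearson r = 0.984 of log2 CPM, over 20485 other genes), followed by MS2 (0.977) and CYP83B1 (0.977). SOT16 was most alike CYP79B2 (0.969), as was CYP83B1 (0.977), and CYP79B3 was most alike the locus AT3G45680 (0.967), ahead of CYP79B2 (0.964). CYP81F2 in roots was most alike CYP82C2 (0.942) and AT1G26380 (0.923), and its best match among the 8 genes, MYB51, had r = 0.247. In the 18 shoot libraries CYP83B1 and SOT16 were most alike each other (0.973) and CYP79B3 was most alike CYP79B2 (0.960). CYP79B2 itself was most alike AT3G59020 (0.971) and ERD1 (0.970), ahead of CYP79B3. MYB34 was most alike AT1G01320 (0.961) and reached 0.763 with SOT16, its best match among the 8. CYP81F2 in shoots was most alike IGMT3 (0.873) and MYB51 was most alike NADP-ME2 (0.933). These values are descriptions with no test.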
